A study of Mus musculus with 32 samples.

Results

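Astrocytes take up glutamate and GABA released by neurons, are coupled to each other by gap junctions, buffer potassium and water, store glycogen and handle fatty acids. In the hypothalamus they contact the neurons that control feeding and are exposed to nutrients and hormones arriving from the blood. The 37 genes described here were listed as astrocyte genes and were taken by their symbols through a mouse gene annotation of build GRCm38. All 37 were found, each with a single Ensembl identifier, among the 55401 identifiers of the deposited table. The question was how broadly they were lower on high-fat diet, and whether the difference lay in glutamate uptake, in lipid handling or in coupling.

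The series measured RNA from whole hypothalamus in 32 male C57BL/6NTac mice by RNA sequencing, 1 library per mouse. Gpr101, an X-linked orphan receptor gene, was knocked out in hemizygous males (KO) and intact in wild-type littermates (WT). From 7 weeks of age mice ate either a high-fat diet with 60% of its energy from fat (HFD) or a control diet (CD). WT_CD held 7 mice, of which 6 were 149 days old and 1 was 150 days old. WT_HFD held 8 mice, 1 of 149 days and 7 of 150 days. KO_CD held 8 mice, 5 of 149 days and 3 of 150 days. KO_HFD held 9 mice, 1 of 149 days and 8 of 150 days, so age at death followed diet in both genotypes.

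Libraries held 25.3 to 34.2 M (megareads) on genes. Between 2471 and 3472 reads fell on Gpr101 in each wild-type library, whereas the KO_CD libraries held 0 and the KO_HFD libraries 1 in total. Values below are normalized counts, which are reads divided by the size factor of the library, unless another scale is named. A gene was tested when it had at least 10 normalized counts in at least 7 libraries. That left 19928 genes, all 37 astrocyte genes among them. In a bulk tissue sample, fewer astrocytes and less RNA per astrocyte cannot be told apart. Nor can RNA of these genes from astrocytes and from other cells.

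The astrocyte genes were well measured. Their median level was 4491 normalized counts against 375 for all genes tested, and 36 of the 37 lay above that all-gene median. Levels per length of transcript, as reads per kilobase and megaread (RPKM) in WT_CD, placed Sparcl1, which encodes the secreted synapse-organizing protein hevin, highest at 788 ± 14.6 RPKM (SD, n = 7). Cst3, encoding the protease inhibitor cystatin C, followed at 631 ± 21.05 RPKM, and then Glul, encoding glutamine synthetase, at 307 ± 10.5 RPKM. Glul and Ndrg2, at 300.2 ± 3.81 RPKM, were neighbours in this order that did not differ beyond their spread. The lowest were the thyroid hormone transporter gene Slco1c1 at 7.14 ± 0.327 RPKM, the cystathionine beta-synthase gene Cbs at 4.67 ± 0.319 RPKM and the metallothionein gene Mt2 at 1.17 ± 0.331 RPKM. The astrocyte markers Aqp4, Aldh1l1, Gja1, Slc1a2 and Slc1a3 were each read at least 1211 times in every library. Mice of 1 group differed little: the median within-group SD was 0.067 on the log2 scale for the astrocyte genes and 0.12 for all genes tested. For 32 genes it was under 0.1, and only for Mt2, with 8 to 32 reads per library, was it over 0.2.

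High-fat diet was accompanied by lower RNA of 4 astrocyte genes, averaged over both genotypes. Fabp7, which encodes the brain fatty acid-binding protein, fell by 15.3%. Fam107a, an actin-associated gene, fell by 8.29%. Htra1, a secreted serine protease gene, fell by 7.96%, and Acsbg1, which encodes an acyl-CoA synthetase for long-chain fatty acids, fell by 5.94%. No astrocyte gene was called higher. The fall was thus narrow when counted by adjusted p (limma, Benjamini-Hochberg over all 19928 genes, threshold 0.05): 4 of 37 were called lower, against a background of 0.151% of all genes, and 0 of 37 were called higher, against 0.186%. At an unadjusted p under 0.05, 13 of 37 were lower, against 5.2% of all genes, and 2 were higher, against 5.88%. Of any size, 29 of 37 were below 0, against 50.6% of all genes. The differences were small: the median over the 37 genes was -0.03 on the log2 scale, and over all genes tested -0.0008. All 4 calls were lost, with the values still below 0, when age at death entered the fit, and 3 of the 4 when the level of meningeal markers did.

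**Figure D1:**
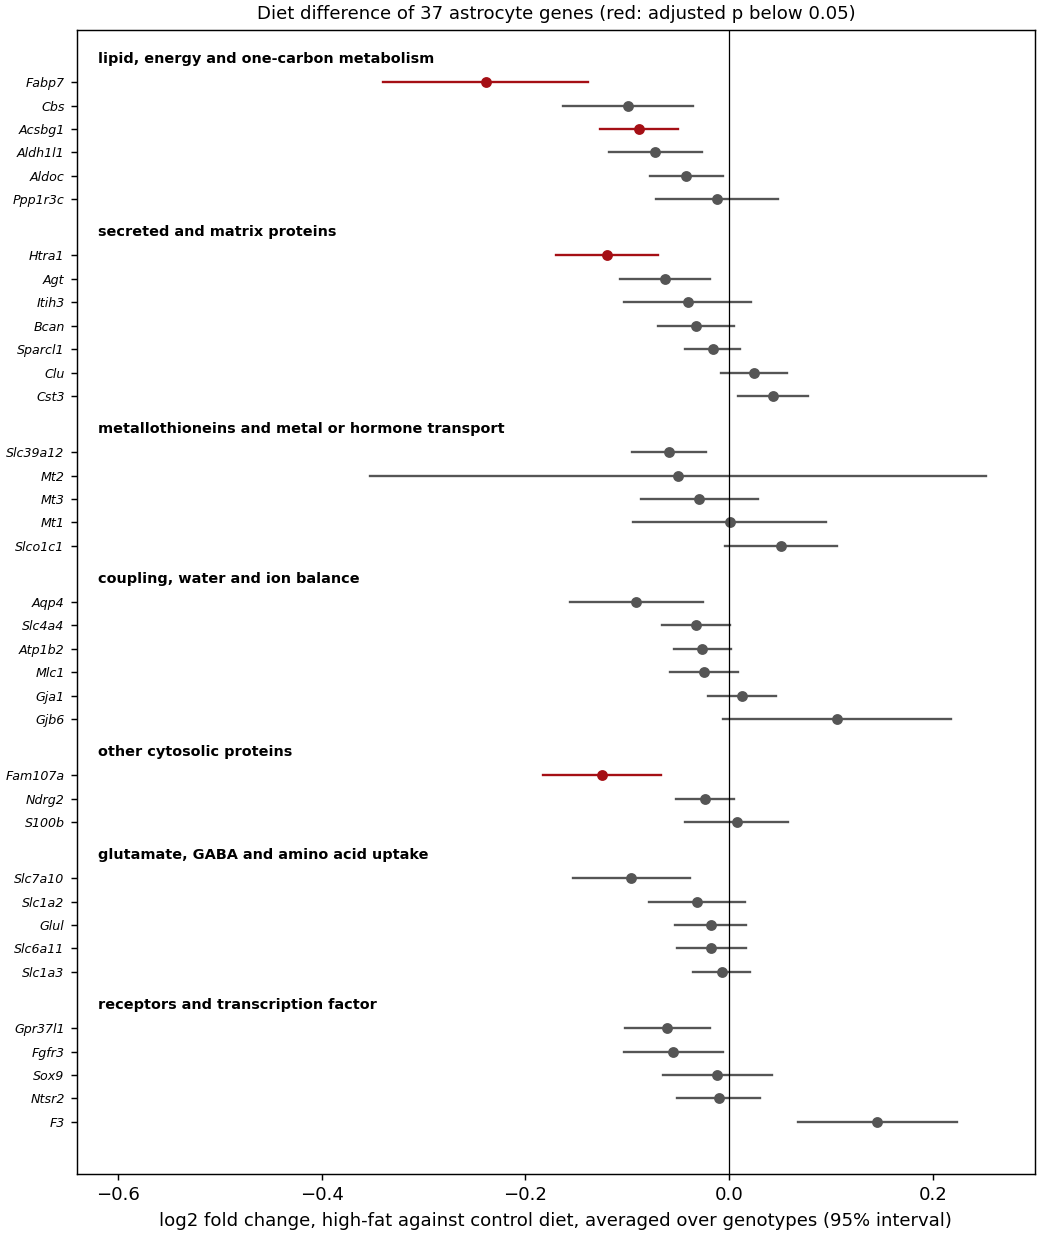
Log2 fold change for high-fat against control diet, averaged over genotypes, of each of the 37 astrocyte genes (points) with its 95% interval (lines), grouped by function. The 4 genes in red, Fabp7, Acsbg1, Htra1 and Fam107a, had an adjusted p below 0.05, all lie below 0, and 29 of the 37 points lie left of the line at 0.

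The sequence upstream of the start site is shown for 3 of the 4 called genes, because each was called lower for diet averaged over genotypes. Fam107a has several annotated starts and is not shown. Each stretch lies upstream of every annotated start, comes from RefSeq on GRCm38.p6, and is written 5′ to 3′ on the strand of the gene, at chr9:54661886-54662135 (minus strand) for Acsbg1, chr10:57784673-57784880 (plus strand) for Fabp7 and chr7:130935953-130936110 (plus strand) for Htra1. Capitals mark a match to the STAT letters TTCNNNGAA.
Acsbg1: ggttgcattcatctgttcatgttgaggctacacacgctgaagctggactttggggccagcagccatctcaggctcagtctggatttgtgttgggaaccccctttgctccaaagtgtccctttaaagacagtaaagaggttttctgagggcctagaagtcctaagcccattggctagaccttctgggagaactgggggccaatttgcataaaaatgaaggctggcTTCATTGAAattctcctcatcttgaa
Fabp7: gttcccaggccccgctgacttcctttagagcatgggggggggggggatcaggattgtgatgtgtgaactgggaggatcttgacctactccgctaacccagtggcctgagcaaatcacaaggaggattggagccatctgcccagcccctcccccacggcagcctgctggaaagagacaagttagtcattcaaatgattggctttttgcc
Htra1: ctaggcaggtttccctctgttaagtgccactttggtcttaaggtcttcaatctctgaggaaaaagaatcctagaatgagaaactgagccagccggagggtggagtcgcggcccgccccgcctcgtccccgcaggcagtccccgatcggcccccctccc
The letters were searched on both strands in the 250 bases upstream of the start. STAT letters were present in 7.02% of all 32851 windows in the table and in 5 of the 32 astrocyte genes that have one. The SRE letters TCACNCCAC, known from sterol-responsive genes, were present in 1.05% of all windows and in 3 of the 32. The percentages count windows, whereas a gene counted when any of its windows matched. A gene with several windows thus had more chances, and the shares cannot be compared directly. A match describes letters only. The windows of Fabp7 and Htra1, as far as printed, held neither STAT nor SRE letters. Other motifs were searched at first and are not reported here.

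Genes of lipid, energy and one-carbon metabolism held 2 of the 4 called genes. All 6 of them were below 0 for diet averaged over genotypes, against 50.6% of all genes. Of the 6, 2 were called lower, against 0.151%, and 5 were lower at an unadjusted p under 0.05, against 5.2%. The same shares of all genes apply to each functional group below. The groups were chosen with earlier results of these data known, so their shares are no independent support for a function. The 37 genes also varied less within groups than all genes (median SD 0.067 against 0.12), so small differences pass more readily among them. The median of the 6 was -0.08 on the log2 scale. Fabp7 (chr10:57784881-57788450, plus strand) had lowest, median and highest values of 1087, 1238 and 1473 normalized counts in WT_CD and of 927, 1118 and 1348 in WT_HFD. In knockouts the corresponding values were 1207, 1288 and 1392 on control diet and 972, 1089.7 and 1196 on high-fat diet. All 9 KO_HFD mice lay below all 8 KO_CD mice, whereas in wild types 3 of 8 HFD mice lay below the lowest CD mouse. Such a complete separation towards lower values was found for 0.0151% of all genes in knockouts, and for 1 of the 37 astrocyte genes. In wild types it was found for 0.0351% of all genes and for 0 of the 37. Averaged over genotypes, the log2 fold change of Fabp7 was -0.24 (SE 0.05, limma adjusted p = 0.0202).

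Acsbg1 (chr9:54604877-54661870, minus strand) stood at 4322, 4401 and 4678 normalized counts (lowest, median, highest) in WT_CD and at 4184, 4281 and 4601 in WT_HFD. In KO_CD it stood at 4120.4, 4473 and 4632, and in KO_HFD at 3646, 4109 and 4266. Thus 7 of 8 WT_HFD mice lay below the lowest WT_CD mouse, the exception being the highest mouse of the group, and 5 of 9 KO_HFD mice lay below the lowest KO_CD mouse. The log2 fold change averaged over genotypes was -0.09 (SE 0.02, limma adjusted p = 0.0190).

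The other genes of this group did not pass the test. Aldh1l1, a folate enzyme gene widely used as an astrocyte marker, had a log2 fold change of -0.07 (limma adjusted p = 0.168). Cbs, whose enzyme condenses homocysteine with serine, had -0.10 (adjusted p = 0.182), and Aldoc, the brain form of the glycolytic enzyme aldolase, had -0.04 (adjusted p = 0.368). These 3 had unadjusted p under 0.05. Ppp1r3c, which targets a phosphatase to glycogen, had -0.01 (adjusted p = 0.927), with a 95% interval from -0.07 to 0.05.

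Genes of glutamate, GABA and amino acid uptake held no called gene. All 5 were below 0, 1 had an unadjusted p under 0.05, and the median was -0.02 on the log2 scale. Slc1a2, which encodes the main glutamate transporter of the forebrain, had lowest, median and highest values of 30859, 33498 and 36677 normalized counts in WT_CD and 29935, 32743 and 34592 in WT_HFD. Its values were 30646, 32989.5 and 35379 in KO_CD and 30258, 32583 and 34437 in KO_HFD. In each genotype 1 HFD mouse lay below the lowest CD mouse, and the groups otherwise overlapped. The log2 fold change of Slc1a2 was -0.03 (95% interval -0.08 to 0.02, limma adjusted p = 0.650). The intervals of the other glutamate genes were as narrow. That of the glutamate transporter gene Slc1a3 ran from -0.04 to 0.02 and that of Glul, whose product turns glutamate into glutamine, from -0.05 to 0.02. The interval of the GABA transporter gene Slc6a11 ran from -0.05 to 0.02.

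Slc7a10, which encodes a transporter of small neutral amino acids including D-serine, had the lowest p of the uptake genes. It stood at 1147, 1253 and 1359 normalized counts in WT_CD, 1014, 1169 and 1225 in WT_HFD, 1129, 1209 and 1334 in KO_CD, and 992, 1129.9 and 1241 in KO_HFD. All 8 WT_HFD mice and 7 of 9 KO_HFD mice lay below the median of their control group. Its log2 fold change of -0.10 (SE 0.03) did not pass (limma adjusted p = 0.132). Slc7a10 overlaps Lrp3 on the opposite strand by 1088 bases, and how strand was treated in counting is not given in the sources used here.

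Genes of coupling, water and ion balance held no called gene either. Of the 6, 4 were below 0 and 2 above, and the median was -0.03 on the log2 scale. The 2 above 0 were the gap junction genes. Gja1, encoding connexin 43, stood at 6302, 6533 and 6917 normalized counts (lowest, median, highest) in WT_CD, 6390.2, 6710.1 and 7061 in WT_HFD, 6333, 6453 and 6772 in KO_CD, and 6216, 6464 and 6667 in KO_HFD. Of the HFD mice, 3 of 8 wild types lay above the highest WT_CD mouse, and 2 of 9 knockouts lay below the lowest KO_CD mouse. The 95% interval of the log2 fold change of Gja1 ran from -0.02 to 0.05. Gjb6, encoding connexin 30, stood at 1710.0, 1893 and 2162 in WT_CD, 1784, 2193 and 2612 in WT_HFD, 1715, 1974 and 2405 in KO_CD, and 1839, 1943 and 2526 in KO_HFD. Of the HFD mice, 4 of 8 wild types and 1 of 9 knockouts lay above the highest control mouse of their genotype. In each group the mouse of highest Gjb6 also had the highest summed level of meningeal markers. These were WT_CD replicate 3 (4511 normalized counts), WT_HFD replicate 2 (7778), KO_CD replicate 1 (6518) and KO_HFD replicate 2 (8001). A part of meningeal tissue in the Gjb6 values was not tested. The log2 fold change of Gjb6, 0.11 (SE 0.05), did not pass (limma adjusted p = 0.479).

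Aqp4, the water channel gene of astrocyte endfeet, stood at 3505, 3627 and 3933 normalized counts in WT_CD, 3238, 3523 and 3759 in WT_HFD, 3307, 3584 and 3999.9 in KO_CD, and 3020.2, 3272 and 4032 in KO_HFD. The highest KO_HFD mouse stood above every KO_CD mouse, while 5 of the 9 lay below the lowest KO_CD mouse. Its log2 fold change was -0.09 (SE 0.03, limma adjusted p = 0.253). Without that mouse, KO_HFD replicate 4, a fit chosen after seeing the data gave adjusted p = 0.0412. Slc4a4, the sodium bicarbonate cotransporter gene, stood at 9520.3, 9913 and 10404 in WT_CD, 8853, 9462 and 10142 in WT_HFD, 9106, 9454 and 9953 in KO_CD, and 9125, 9498 and 9795 in KO_HFD, and gave -0.03 (adjusted p = 0.465). In wild types 4 of 8 HFD mice were below the lowest CD mouse, and in knockouts 0 of 9. Atp1b2, a sodium pump subunit gene, and Mlc1, a membrane protein gene needed for water balance, gave -0.03 and -0.02 (adjusted p = 0.483 and 0.620).

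Among 7 genes of secreted and matrix proteins, Htra1 was called lower, 5 were below 0 and the median was -0.03. Htra1 (chr7:130936111-130985660, plus strand) stood at 2298, 2444 and 2664 normalized counts in WT_CD and at 2168, 2239.5 and 2525 in WT_HFD. It stood at 2303, 2405 and 2814 in KO_CD and at 2115, 2228 and 2308 in KO_HFD. Of the HFD mice, 6 of 8 wild types and 8 of 9 knockouts lay below the lowest control mouse of their genotype. The log2 fold change of Htra1 was -0.12 (SE 0.02, limma adjusted p = 0.0117). The whole of Htra1 lies opposite an annotated form of Fgfr2, whose level was 0.639 of that of Htra1 and whose log2 fold change for diet was 0.11, in the other direction. Agt, encoding angiotensinogen, gave -0.06 (adjusted p = 0.234), with 5285, 5518 and 5715 normalized counts in WT_CD, 5078, 5408 and 5738 in WT_HFD, 5327, 5473 and 5874 in KO_CD, and 4625, 5179 and 5536 in KO_HFD. The KO_HFD group reached lowest, with 6 of its 9 mice below the lowest KO_CD mouse. Cst3 was above 0, at 0.04 (adjusted p = 0.314), as was Clu, the clusterin gene, at 0.02 (adjusted p = 0.604). The proteoglycan gene Bcan, Sparcl1 and the matrix protein gene Itih3 lay between -0.04 and -0.02, with adjusted p from 0.524 to 0.704.

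Fam107a (chr14:8296274-8318023, minus strand), placed with Ndrg2 and S100b as cytosolic proteins of other function, stood at 4747, 5038 and 5219.8 normalized counts in WT_CD and at 4209, 4611 and 5219 in WT_HFD. It stood at 4584, 4807 and 5954 in KO_CD and at 4194, 4408 and 4783 in KO_HFD. In wild types 6 of 8 and in knockouts 7 of 9 HFD mice lay below the lowest control mouse. The log2 fold change was -0.12 (SE 0.03, limma adjusted p = 0.0404). This call was the least steady of the 4: leaving out 1 mouse at a time kept it in 12 of 32 fits. Ndrg2 stood at 28239, 28474 and 28927 in WT_CD, 27419.8, 28188 and 29413 in WT_HFD, 26217, 28318 and 29526 in KO_CD, and 26422, 27470.4 and 28573 in KO_HFD, and gave -0.02 (adjusted p = 0.544). S100b, a calcium-binding protein gene that overlaps Dip2a on the opposite strand by 1731 bases, gave 0.01 (adjusted p = 0.945).

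**Figure D2:**
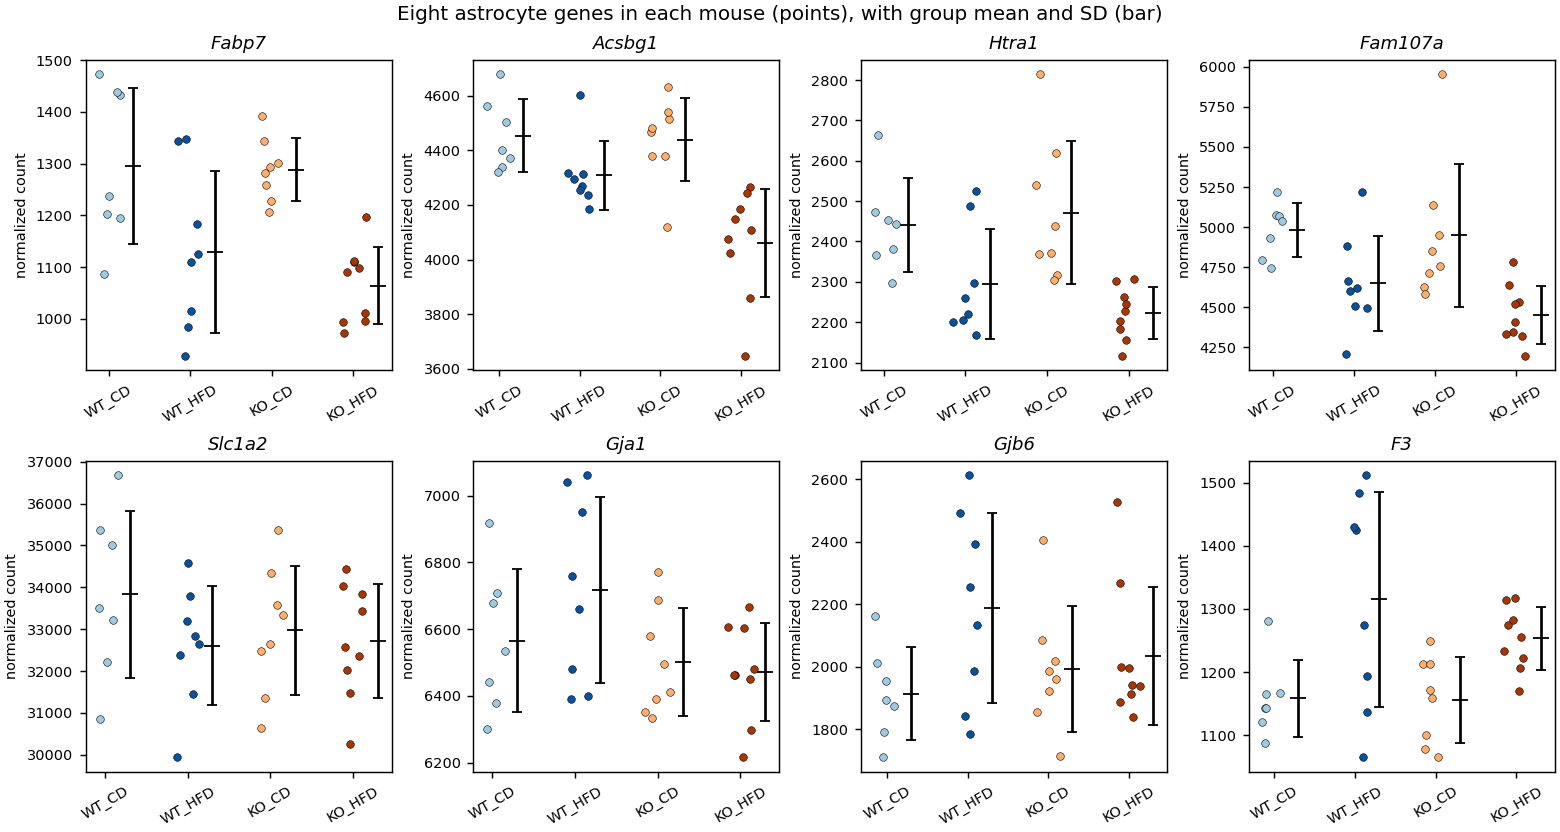
Normalized counts in each mouse (points) of 8 astrocyte genes in the 4 groups, with the group mean and SD beside them; the vertical axes do not start at 0. For Fabp7 all 9 KO_HFD mice lie below all KO_CD mice, while for Slc1a2 and Gja1 the diet groups overlap in each genotype and for F3 and Gjb6 several HFD mice lie above the control range.

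Among receptors and the transcription factor Sox9, no gene was called, 4 of 5 were below 0 and the median was -0.01. F3, which encodes tissue factor, the initiator of blood clotting, had the highest fold change of the 37 genes. It stood at 1088, 1143 and 1281 normalized counts in WT_CD, 1065, 1349.7 and 1512 in WT_HFD, 1065, 1165 and 1249 in KO_CD, and 1170.1, 1256 and 1317 in KO_HFD. All 9 KO_HFD mice lay above the KO_CD median, and 4 of 8 WT_HFD and 5 of 9 KO_HFD mice above the highest control mouse. The log2 fold change of F3, 0.15 (SE 0.04), did not pass (limma adjusted p = 0.0905). Gpr37l1, an orphan receptor gene of astrocytes, stood at 4424, 4631 and 4713 in WT_CD, 4292, 4504 and 4722 in WT_HFD, 4248, 4637 and 4751 in KO_CD, and 3849.7, 4374 and 4628 in KO_HFD. All 9 KO_HFD mice lay below the KO_CD median, yet the log2 fold change of -0.06 did not pass (adjusted p = 0.222). The growth factor receptor gene Fgfr3 gave -0.05 (adjusted p = 0.393), the neurotensin receptor gene Ntsr2 -0.01 (adjusted p = 0.903) and Sox9 -0.01 (adjusted p = 0.917).

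Among metallothioneins and carriers of metals or hormones, no gene was called, 3 of 5 were below 0 and the median was -0.03. Slc39a12, a zinc importer gene, stood at 2020.0, 2086 and 2152 normalized counts in WT_CD, 1939.6, 2006 and 2052 in WT_HFD, 1978, 2057 and 2144 in KO_CD, and 1831, 1973 and 2098 in KO_HFD. All 8 WT_HFD and 8 of 9 KO_HFD mice were below the median of their control group, with a log2 fold change of -0.06 that did not pass (limma adjusted p = 0.150). Slco1c1 stood at 974, 1039 and 1102 in WT_CD, 979, 1079 and 1160.4 in WT_HFD, 1007, 1025 and 1133 in KO_CD, and 989.7, 1096 and 1205 in KO_HFD, and gave 0.05 (adjusted p = 0.488). The metal-binding metallothionein genes Mt1 and Mt3 gave 0.0006 and -0.03 (adjusted p = 0.997 and 0.759). Mt2 gave -0.05 with a 95% interval from -0.35 to 0.25, and at 8 to 32 reads per library a difference of the size seen in Fabp7 was not detectable for it. Mt2 also overlaps an antisense gene by 749 bases.

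Within each genotype the difference of each gene was estimated from different mice, so wild types and knockouts can be set side by side. In wild types 0 of 37 astrocyte genes were called lower by limma, as were 0 of all genes, and 0 were called higher, against 0.0251% of all genes. By limma-voom on the recovered reads 0 were called as well. At an unadjusted p under 0.05, 7 were lower, against 3.54% of all genes, and 3 were higher, against 3.85%, namely F3 (0.17), Cst3 (0.07) and Gjb6 (0.18). Below 0 lay 26 of 37, against 50.1%, and the median was -0.03. That median was -0.02 with age as a covariate, -0.02 in mice of 150 days alone and -0.01 with the meningeal level as a covariate. In knockouts 1 of 37 was called lower, against 0.0201% of all genes. It was Acsbg1, with a log2 fold change of -0.13 (SE 0.03, limma adjusted p = 0.0347). At an unadjusted p under 0.05, 12 were lower in knockouts, against 3.47%, and 1 was higher, against 3.56%, and 30 were below 0, against 50.6%. The median in knockouts was -0.04. In both genotypes at once, 24 of 37 were below 0, against 29.8% of all genes, and 5 were above 0 (Clu, Cst3, F3, Gjb6 and Slco1c1), against 29% of all genes.

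Whether the diet difference itself differed between genotypes was tested by the interaction term. It called 0 of 37 astrocyte genes, as it did 0 of all genes, at adjusted p = 0.999 for each of the 37 (limma). At an unadjusted p under 0.05 it gave 3 of 37, against 3.39% of all genes. These were Agt (-0.10), S100b (-0.11) and Acsbg1 (-0.08), each with the lower value in knockouts. For Acsbg1 the log2 fold change for diet was -0.05 (SE 0.03) in wild types and -0.13 (SE 0.03) in knockouts. For Fabp7 it was -0.20 (SE 0.07) and -0.28 (SE 0.07), and the 95% interval of the difference ran from -0.28 to 0.12.

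**Figure D3:**
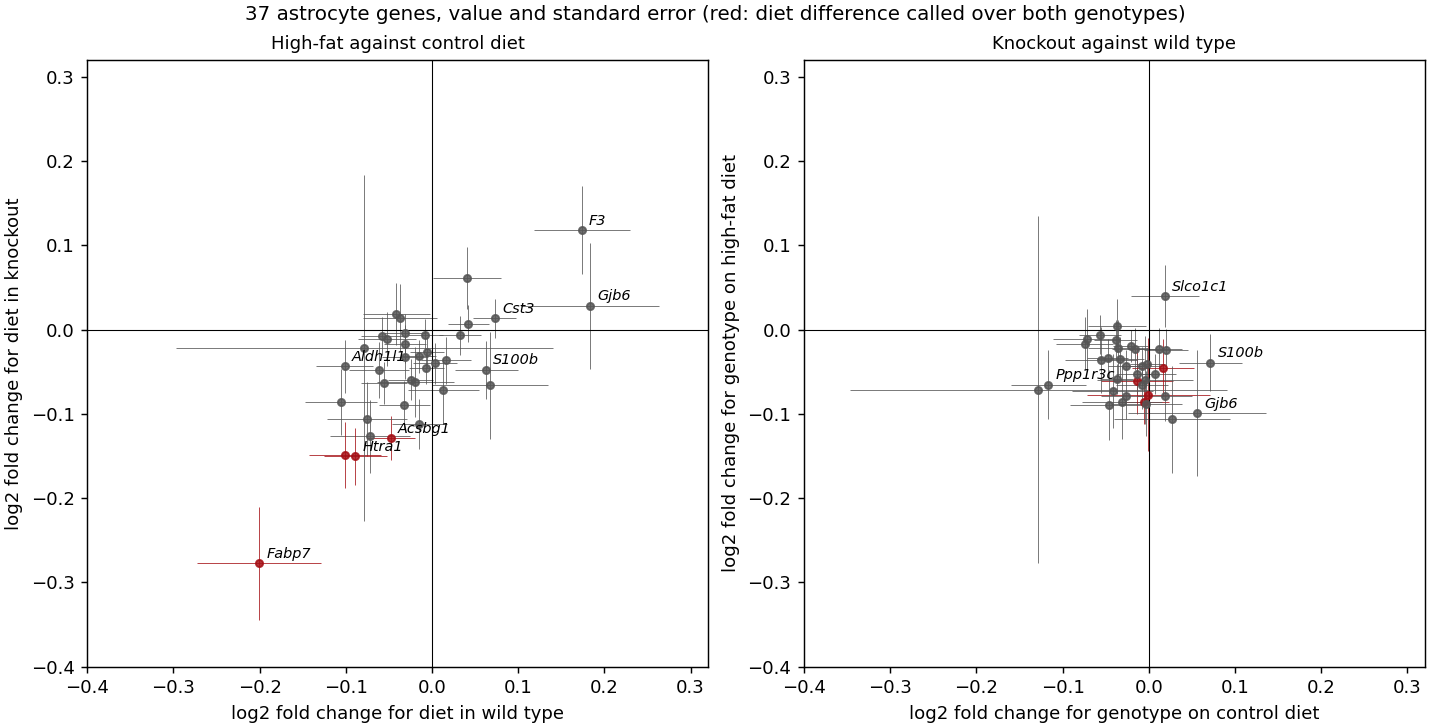
Log2 fold changes with standard errors of the 37 astrocyte genes: left, high-fat against control diet in wild types (horizontal) and knockouts (vertical); right, knockout against wild type on control (horizontal) and high-fat diet (vertical). Red points are the 4 genes called for diet over both genotypes; 24 points lie below 0 in both genotypes on the left, and on the right 35 lie below 0 on high-fat diet.

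Loss of Gpr101 gave no called astrocyte gene. Averaged over diets, limma called 0 of 37, against 0.00502% of all genes, which is Gpr101 alone, and limma-voom also called 0. At an unadjusted p under 0.05, 7 of 37 were lower, against 3.1%, and 35 of 37 were below 0, against 51.7%. The median was -0.03 on the log2 scale and the lowest adjusted p was 0.758. Such a lean was not particular to the 37. Averaged over diets, 10 of 10 ependymal (median -0.11) and 11 of 11 tanycyte markers (median -0.10) were below 0. So were 32 of 42 further astrocyte genes, 10 of 12 endothelial and pericyte markers and 9 of 12 microglial markers (medians -0.02, -0.02 and -0.04). Only 2 of 12 neuronal and 0 of 12 oligodendrocyte markers were below 0 (medians 0.03 and 0.05). No gene of these lists was called. Sparcl1 had a log2 fold change of -0.05 (SE 0.01, limma adjusted p = 0.758) and Ppp1r3c of -0.09 (SE 0.03, adjusted p = 0.758). The lowest, median and highest normalized counts of Sparcl1 were 63685, 64616 and 67118 in WT_CD, 62665, 64662 and 66208 in WT_HFD, 61141, 63120.1 and 64930.1 in KO_CD, and 58623, 62769 and 64339.9 in KO_HFD. The genotypes overlapped on both diets.

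On control diet, 0 of 37 genes were called between genotypes by limma, against 0.00502% of all genes, with 3 lower at an unadjusted p under 0.05, against 2.14%, and 28 below 0, against 50.2%. On high-fat diet, 0 of 37 were called, against 0.00502%, with 11 lower at an unadjusted p under 0.05, against 2.67%, and 35 below 0, against 51.5%. The median was -0.02 on control diet and -0.04 on high-fat diet. Without the 9 mice of high meningeal level, a setting chosen after seeing the data, the median was -0.01 on control diet, -0.02 on high-fat diet and -0.02 averaged over diets. In that setting 30 of 37 genes were below 0 on high-fat diet. The mean log2 value over the 37 genes was 12.19 ± 0.02 in WT_CD (SD, n = 7), 12.18 ± 0.03 in WT_HFD (n = 8), 12.17 ± 0.03 in KO_CD (n = 8) and 12.13 ± 0.01 in KO_HFD (n = 9). The KO_HFD mice ranged from 12.11 to 12.15, and the other groups reached from 12.13 to 12.23.

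Outside the 37, called genes of related functions included both lower and higher ones on high-fat diet. Of all genes tested, 0.151% were called lower and 0.186% higher, which is the background for the counts below. Of 42 further astrocyte genes, 1 was called lower on high-fat diet, Kcnj10, which encodes the inward rectifier potassium channel Kir4.1 (log2 fold change -0.11, SE 0.02, limma adjusted p = 0.00018). The median of the 42 was -0.01, and 24 of the 42 were below 0, against 29 of the 37 and 50.6% of all genes. In wild types 19 of the 42 were below 0 (median 0.007), against 26 of the 37 and 50.1% of all genes. In knockouts 29 of the 42 were below 0 (median -0.03), against 30 of the 37 and 50.6%. Of 13 genes of the glutamate-glutamine cycle, 1 was called, the glutamine transporter gene Slc38a2, which was higher (0.26, adjusted p = 0.0305). Of 18 genes of lipid handling, 0 were called lower, 6 were below 0 and the median was 0.03. Among those called higher was the beta-oxidation gene Acaa2 (0.19, limma adjusted p = 0.00269). Of 13 genes of glycogen and glycolysis, the monocarboxylate transporter gene Slc16a1 was higher (0.31, adjusted p = 4.86e-07). Of 7 gap junction partners, 0 were called by limma, and the connexin gene Gjb2 had the lowest p (0.50, adjusted p = 0.441), with Gjb1 next (-0.06, adjusted p = 0.620). Of 7 metal response genes, 0 were called, with Slc39a10 and Slc39a14 of lowest p at adjusted p = 0.543 and 0.708. Of 14 glucocorticoid response genes, 0 were called and the median was 0.07, with Errfi1 (0.16, adjusted p = 0.116) and Tsc22d3 (0.14, adjusted p = 0.314) of lowest p.

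Of 16 genes known from reactive astrocytes, 15 were tested, 3 were called higher, against 0.186% of all genes, and the median was 0.19. They were the protease inhibitor gene Serpina3n (0.54, SE 0.06, limma adjusted p = 1.21e-05), the signalling gene Stat3 (0.19, SE 0.03, adjusted p = 5.34e-05) and the complement gene C4b (0.37, SE 0.07, adjusted p = 0.00539). Gfap, the astrocyte filament gene, gave 0.03 (adjusted p = 0.910). The sum of the 16 genes was highest in replicate 2 of WT_HFD (20412 normalized counts) and replicate 1 of KO_CD (17534). These were the mice of highest meningeal sum in their groups (7778 and 6518). In WT_CD and KO_HFD it was highest in replicates 6 and 4, with meningeal sums of 2145 and 1710. A part of meningeal tissue in these values was not tested. Summed normalized counts of the 37 astrocyte genes had medians of 377651 in WT_CD, 376087 in WT_HFD, 375516 in KO_CD and 365290.4 in KO_HFD.

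Of the markers of other cells, 4 haemoglobin genes and 1 microglial gene were called for diet, all higher, against 0.186% of all genes called higher. The summed level of 10 meningeal and fibroblast genes ranged from 1563 to 4511 normalized counts in WT_CD, 1336 to 7778 in WT_HFD, 1321 to 6518 in KO_CD and 1587 to 8001 in KO_HFD, and 0 of the 10 were called for diet, with a median of 0.56 on the log2 scale. The summed level of 8 blood genes ranged from 11662 to 17943 in WT_CD, 16683 to 41480.2 in WT_HFD, 11235 to 22471 in KO_CD and 16836 to 37630 in KO_HFD. Of these, 6 were tested and the 4 haemoglobin genes Hbb-bs, Hbb-bt, Hba-a1 and Hba-a2 were called higher. The microglial gene Ctss was called higher (0.14, adjusted p = 0.00998), as 1 of 12 microglial markers. No marker of neurons (12), oligodendrocytes (12), oligodendrocyte precursors (7), endothelium and pericytes (12), ependyma (10), tanycytes (11) or choroid plexus (8) was called for diet by limma. No listed marker was at 0 throughout a group. Without the 9 mice whose meningeal sum was above 4000, a fit chosen after seeing the data gave Fabp7 -0.19, Acsbg1 -0.08, Htra1 -0.13 and Fam107a -0.15 on the log2 scale, with 0 of 37 called. With the meningeal level as a covariate, Htra1 was called (adjusted p = 0.0196) and Acsbg1, Fabp7 and Fam107a were not (adjusted p = 0.0822, 0.0611 and 0.0765). The part of meninges and blood in the diet differences was not tested beyond these fits.

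**Figure D4:**
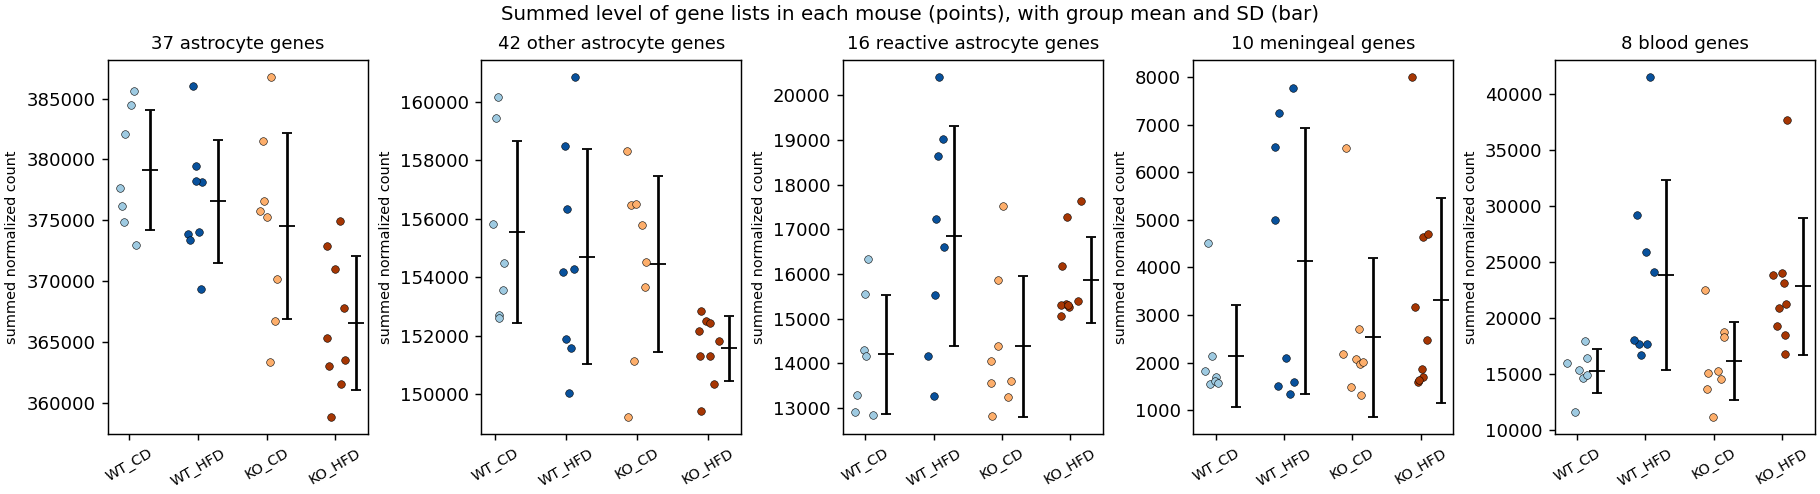
Summed normalized counts in each mouse (points) of the 37 astrocyte genes, 42 other astrocyte genes, 16 reactive astrocyte genes, 10 meningeal genes and 8 blood genes, with the group mean and SD beside them; the vertical axes do not start at 0. The sums of the 37 genes overlap between all groups, with the KO_HFD median lowest at 365290.4, while meningeal sums above 4000 occur in 1 of 7 WT_CD, 4 of 8 WT_HFD, 1 of 8 KO_CD and 3 of 9 KO_HFD mice.

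Age at death followed diet. With age as a covariate the log2 fold changes for diet were -0.25 for Fabp7, -0.09 for Acsbg1, -0.14 for Htra1 and -0.14 for Fam107a, with 0 of 37 called and the lowest adjusted p at 0.059 for Htra1 (limma). The age term itself called 0 of 37 astrocyte genes and 0 of all genes, with 0 of 37 and 1663 of all genes at an unadjusted p under 0.05. In the mice of 150 days alone, where WT_CD held 1 mouse that is assumed to vary like the others, the values were -0.30, -0.07, -0.15 and -0.14 in the same order, with 0 of 37 called.

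Deviations of single mice from their group mean were compared among the 4 called genes, over 6 pairs of genes and 32 mice. The log2 values of Htra1 and Fam107a deviated together, with Pearson's r = 0.56 (permutation p = 0.00683, Benjamini-Hochberg adjusted 0.0410) and Spearman's rho = 0.39 (permutation p = 0.0390, adjusted 0.117). Without the 2 mice farthest from the median of Htra1, r was 0.22. Leaving out the extremes of Htra1 also narrows its range, so this value cannot say whether the relation rests on those mice. Fabp7 and Acsbg1 did not deviate in the same direction (r = -0.28, permutation p = 0.0901, adjusted 0.270; rho = -0.40, permutation p = 0.0259, adjusted 0.117).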

How the data were processed

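RNA from the hypothalamus of 32 mice was sequenced as stranded 150-base paired-end libraries, per the labels' protocols, which name no molecular identifiers. The tools in the submitters' processing notes, listed here without roles, are STAR 2.7.6a, cutadapt 2.10, Trim Galore 0.6.2, FastQC, R 4.0.2 and DESeq2 1.28.1, with the build GRCm38. Which tool counted reads, with which annotation and strand option, is not given in the sources used here. Values deposited by the authors are log2 values, 1 per gene and library. Each is the log2 of reads divided by a size factor of its library, and genes without reads stand at the log2 of 0.1. Undoing this returned whole reads for 100% of values within 1e-06 reads.

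Symbols and coordinates came from GENCODE on GRCm38, which named 55141 of 55401 identifiers. The test was limma 3.58.1 (R 4.3.3, statmod 1.5.0) with trend and robust moderation on log2(normalized count + 1), for 19928 genes with 10 or more normalized counts in 7 or more libraries. The 4 groups, taken from the labels, shared 1 fit without covariates, and p-values were two-sided and Benjamini-Hochberg adjusted over all genes tested at 0.05. The pseudocount of 1 understates fold changes of genes with few reads such as Mt2. RPKM was computed from recovered reads, total reads on genes and merged exon length. The test was checked on simulated data of independent genes with the same dispersion for every gene. The simulation held no age or meningeal differences between mice, so it cannot show how the test behaves with them. Correlations used 100000 permutations within groups in Python 3.11.15 with SciPy 1.17.1.

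The 37 genes, their functional groups and the other lists were chosen with earlier results of these data known. All 37 are named. Values by group are given for called genes and for the 2 of lowest p in each functional group, and those of Sparcl1, Gja1 and Gjb6 were added after their values were seen. Of other lists at most 4 called genes, or the 2 of lowest p, are named for the lists of astrocyte function. Gfap and Fgfr2 were added after their values were seen, and 1 gene that the rule takes is not reported here. Replicates of a group are separately labelled mice. No pair of libraries agreed within sampling noise, the lowest chi-square per gene over pairs being 2.33. Alternatives were other pseudocounts, no filter, other scalings, limma-voom, blocks, age, and leaving out mice.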

Additional observations from a re-analysis of the deposited data

Results flagged for a closer look

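Among 148 sets of values (37 genes in 4 groups), 11 had 1 mouse farther from the others than Dixon's 95% critical value allows, which is 7.43%, and chance flags about 1 in 20. No cause was tested.

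Of these, 2 concern genes called for diet. Fam107a reached 5954 normalized counts in KO_CD replicate 3, above the next mouse at 5141. Acsbg1 reached 4601 in WT_HFD replicate 7, above the next at 4316.

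The other 9 concern genes that were not called. Aqp4 was highest at 4032 in KO_HFD replicate 4, above the next at 3399. F3 was highest at 1281 in WT_CD replicate 3 and Glul at 30820.1 in WT_CD replicate 2. Slc7a10 was lowest at 1014 in WT_HFD replicate 8 and Atp1b2 at 17369 in WT_CD replicate 4. Ppp1r3c was lowest at 914 in WT_CD replicate 5 and highest at 1190.1 in WT_HFD replicate 6. Clu was lowest at 16897 in WT_CD replicate 1 and Ntsr2 at 3979.7 in KO_HFD replicate 8. The 11 values fall on 11 different mice.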

How the results depend on the processing

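Of 14 other settings for diet averaged over genotypes, 10 gave 3 or 4 called astrocyte genes and 4 gave fewer. The count of 4 became 0 with age as a covariate, 0 in mice of 150 days alone, 0 without the 9 mice of high meningeal level and 1 with the meningeal level as a covariate. The last 2 settings were chosen after seeing the data, as was leaving out each mouse, which gave 3 to 5 for diet averaged over genotypes, 0 to 1 in knockouts and 0 to 0 in wild types. The single call in knockouts, Acsbg1, became 0 without the filter, scaled to total reads, with age, in mice of 150 days alone, without mice of high meningeal level and without the 3 libraries of widest spread. Genotype and interaction counts were 0 in all 14 settings. The cause was not tested, beyond the fewer mice in fits that leave mice out.

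The log2 fold changes of the 4 called genes stayed below 0 in all 14 settings, between -0.30 and -0.19 for Fabp7, -0.09 and -0.07 for Acsbg1, -0.15 and -0.11 for Htra1 and -0.15 and -0.12 for Fam107a. With 1 mouse left out, Htra1 and Fabp7 were called in 32 of 32 fits, Acsbg1 in 31 (not without WT_CD replicate 6, adjusted p = 0.0519) and Fam107a in 12, and F3 was called higher without WT_HFD replicate 3 or 5. The call of Acsbg1 in knockouts was lost without KO_CD replicates 2, 3, 5, 6 or 7, or KO_HFD replicates 1, 2, 7 or 8.

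Over all genes, 67 were called for diet averaged over genotypes, 12 with age, 0 in mice of 150 days, 15 without mice of high meningeal level, 42 with the meningeal level as a covariate, and 43 without the filter. In wild types 5 were called, and 0 to 8 over the settings, and in knockouts 7, and 2 to 12. Leaving out 1 mouse gave 41 to 87, with the lowest without WT_CD replicate 2 or 6 and with 43 and 44 without KO_CD replicate 5 and WT_CD replicate 1. Below 0 for diet in knockouts were 30 of 37 genes, or 26 when scaled to total reads.

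Mice were not treated as paired by replicate number: deviations of same-numbered mice correlated at -0.20 to 0.32, over 0.1 in 8 of 42 pairs. Such correlations do not settle whether same-numbered mice were handled together. With the replicate number as a block, 3 astrocyte genes and 45 genes in all were called for diet averaged over genotypes. Fabp7 was then not called (limma adjusted p = 0.0617). Depth limits Mt2 only, at 8 to 32 reads per library.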
